A study of Mus musculus with 4 samples.

Results

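The nuclear genes of respiratory complexes II to V were examined in B220+CD43+ cells, labelled as pro-B cells, from mice with floxed or wild-type Cnot3 alleles. Members were the genes whose symbols name a subunit of succinate dehydrogenase (Sdha to Sdhd), of the cytochrome bc1 complex (Uqcr genes and Cyc1), of cytochrome c oxidase (Cox4 to Cox8 genes) or of ATP synthase (Atp5 genes), together with the carrier Cycs. Cox6a2 and pseudogene symbols were left out. This gave 48 of the 23312 genes in the files. By symbol, 4 were placed in complex II, 9 in complex III, 17 in complex IV and 17 in complex V. RNA came from sorted bone marrow cells of C57BL/6 mice, with 2 libraries from Cnot3 fl/fl RERTCre mice and 2 from Cnot3 +/+ RERTCre mice. RERTCre is a Cre recombinase that tamoxifen switches on, and the mice of both genotypes carried it. The Cre is expressed from the broadly active Polr2a locus and is not limited to B cells. Every mouse received 1 mg tamoxifen on days 1, 2, 4 and 7 and was analysed on day 10. The series text calls the replicates individual mice.

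Electrons enter complex II from succinate, pass through complex III and cytochrome c to complex IV, where oxygen is reduced, and complex V uses the resulting proton gradient to make ATP. Complexes III to V join large catalytic or structural proteins with many short accessory subunits. Complex II is encoded wholly in the nucleus and also serves the citric acid cycle. In complexes III, IV and V some core subunits come from mitochondrial DNA, and these were not analysed here. CNOT3 is a subunit of CCR4-NOT, which shortens the poly(A) tails of mRNAs.

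Levels are FPKM, fragments scaled to transcript length and library size, so levels of different genes can be set side by side. The files hold no counts and the absolute depth is unknown. Relative depth, read from steps between the lowest values, came to 0.956 and 1 in the Cnot3 fl/fl samples and to 0.746 and 0.899 in the Cnot3 +/+ samples. Cnot3 itself measured 39.0 and 40.3 FPKM in Cnot3 fl/fl samples and 41.6 and 39.3 FPKM in Cnot3 +/+ samples. Which exons are floxed is not stated, so whole-gene FPKM is no check of the deletion, and genotypes are as labelled. Cnot3 +/+ replicate 1 alone carried Y-linked transcripts, with Ddx3y at 16.0 FPKM and Xist at 0.0242 FPKM. In the other 3 libraries Xist was between 54.3 and 63.1 FPKM.

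The sorted cells carried B-lineage markers, but the summed markers of another cell type were more abundant. Of 16 pro-B markers, 6 were lower in Cnot3 fl/fl samples and 0 higher (limma, adjusted p under 0.05), among them Cd79a and Pax5. Over all genes tested, 3.28% were called lower and 6.22% higher. The log2 fold change was negative in 12 of the 16 and positive in 4. For Dntt, Spn and Ptprc both Cnot3 fl/fl samples were above both Cnot3 +/+ samples, but none of these passed. The summed level of the 16 markers was 1301 to 1364 FPKM in Cnot3 fl/fl samples and 1529 to 1880 FPKM in Cnot3 +/+ samples. Plasmacytoid dendritic cells also carry B220, and their 14 markers had a larger sum than the pro-B markers in every library, at 9206 to 10974 FPKM in Cnot3 fl/fl samples and 10373 to 10404 FPKM in Cnot3 +/+ samples. Of these, Tlr7 was higher and Cox6a2 lower, and 7 had a positive and 7 a negative log2 fold change. The 12 neutrophil and monocyte markers summed to 181.6 to 264.9 FPKM in Cnot3 fl/fl against 178.8 to 237.4 FPKM in Cnot3 +/+ samples, with 3 higher and 0 lower. The 14 T and NK markers summed to 890.8 to 1092 FPKM in Cnot3 fl/fl against 788.5 to 922.3 FPKM in Cnot3 +/+ samples, with 1 higher and 0 lower. The higher one was Cd8a, at 129 and 135 FPKM in Cnot3 fl/fl against 15.7 and 25.7 FPKM in Cnot3 +/+ samples. Between the genotypes 9 of the 14 overlapped, among them Cd3e, Cd3d and Cd3g, against 3926 of the 11017 genes tested. Both Cnot3 fl/fl samples were above both Cnot3 +/+ samples in 4, or 28.6%, against 32.7% of all genes tested. These were Cd8a, Klrd1, Ncr1 and Gzmb, of which only Cd8a passed in limma. The authors' deposited comparison marked all 4 as significant, against 6.59% of the genes it tested. Cd4 lay below without overlap and did not pass. The 10 erythroid markers summed to 38.7 to 50.4 FPKM in Cnot3 fl/fl against 43.8 to 82.0 FPKM in Cnot3 +/+ samples, and Klf1, Epor and Hbb-b2 were under 1 FPKM in every library. The 7 plasma cell markers summed to 349.4 to 497.0 FPKM in Cnot3 fl/fl against 443.6 to 993.3 FPKM in Cnot3 +/+ samples, with 1 lower. In bulk RNA, fewer cells of a type and less RNA per cell cannot be told apart. The part of this cell mixture in the differences given below was not tested.

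In Cnot3 fl/fl samples the largest subunit of complex II and a core protein of complex III rose. By contrast, 3 short members of complex IV and 1 of complex V fell. Sdha and Uqcrc1 rose by 1.48-fold and 1.37-fold. Cox5a, Cox6c, Cox7a2l and Atp5e fell to between 0.622 and 0.682 of the Cnot3 +/+ mean. The other 36 tested members did not pass the test, and 6 members were too low to be tested. The test was limma on log2(FPKM + 1) over the 11017 genes that averaged 1 FPKM or more, two-sided, with Benjamini-Hochberg adjustment over all of them and a threshold of 0.05. Of the 42 members tested 6 were called in either direction, in a table where 9.49% of genes were. Of those 42, 4.76% were called higher, against 6.22% of all genes tested, and 9.52% were called lower, against 3.28% of all genes tested. The higher share is thus no larger than in the whole table. At an unadjusted p under 0.05 there were 17 members, or 40.5%, against 33.8% of all genes tested, a share near that of the whole table.

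The libraries were also compared by order alone. Both Cnot3 fl/fl samples were lower than both Cnot3 +/+ samples in 24 of the 42 tested members, or 57.1%, against 31.7% of all genes tested. They lay above in 6 members, or 14.3%, against 32.7% of all genes tested. The median log2 fold change was -0.21 over the tested members and -0.01 over all genes tested, and it was negative in 31 members. With 2 samples a genotype, the smallest p of an exact two-sided permutation test is 0.333.

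**Figure D1:**
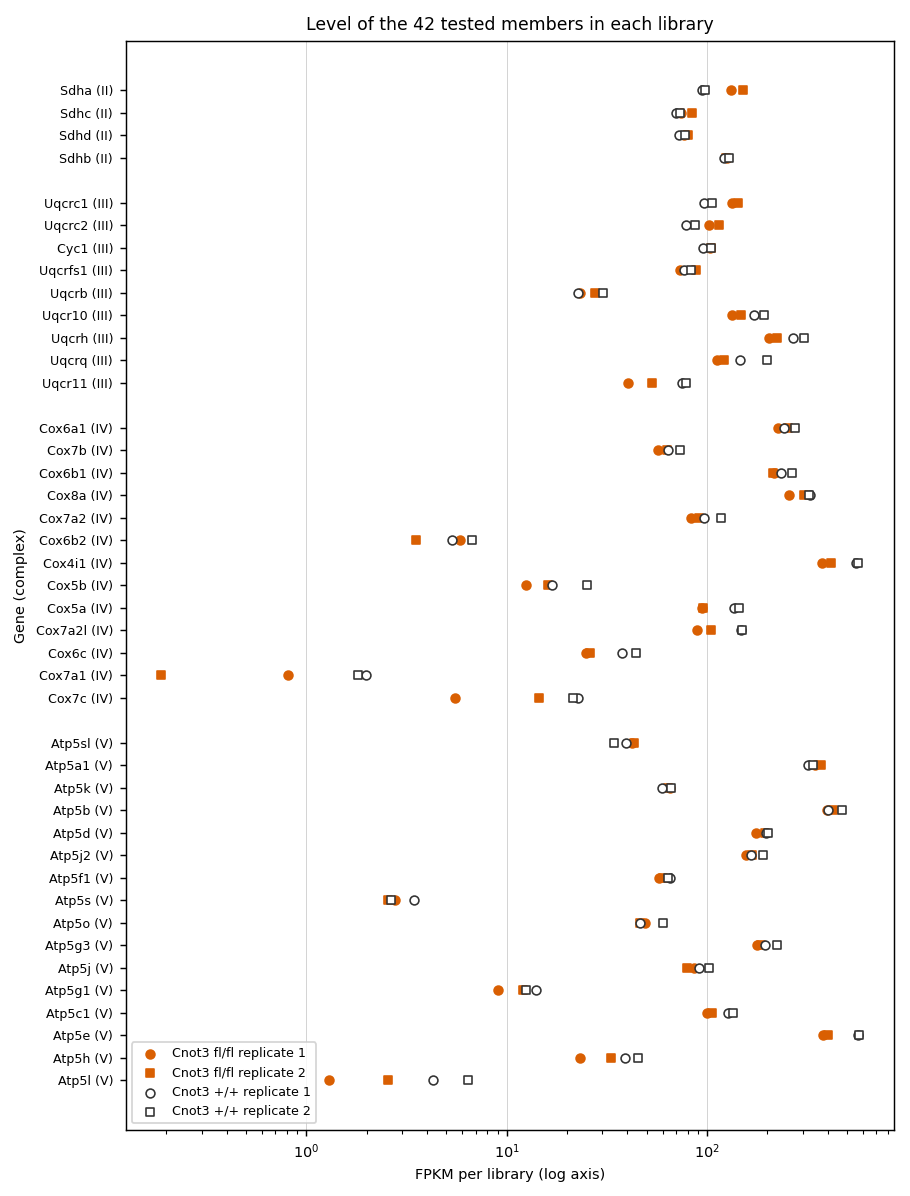
FPKM (log axis) of each tested member in each library, with orange filled symbols for Cnot3 fl/fl and open symbols for Cnot3 +/+, circles for replicate 1 and squares for replicate 2. The orange symbols lie right of the open ones for Sdha, Uqcrc1 and Uqcrc2 and left of them for most complex IV members.

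The 6 calls lie close to the threshold, with limma adjusted p-values between 0.038 and 0.0495. A fit with 1 library left out keeps a single sample of 1 genotype, so it cannot tell if a call depends on that library. In such fits the log2 fold changes stayed between 0.39 and 0.65 for Sdha and Uqcrc1. For the 4 that fell they stayed between -0.78 and -0.51. None of the 6 passed when all genes above 0 were tested, or when the variance prior had no trend. In the authors' deposited table, which tested 42 of the members, 1 was marked significant, against 6.59% of all genes it tested. That member was Cox7a2l, lower with a q-value of 0.036; the table marked 2.51% of its genes as lower and 4.08% as higher.

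Complex II was the only one of the 4 complexes in which no tested subunit had a negative log2 fold change. Sdha, the flavoprotein that oxidises succinate, measured 132 and 151 FPKM in Cnot3 fl/fl samples and 94.4 and 98.0 FPKM in Cnot3 +/+ samples. Both Cnot3 fl/fl samples were above both Cnot3 +/+ samples, and the log2 fold change was 0.55 (standard error 0.10, adjusted p = 0.043 by limma). The gene lies on chromosome 13 from 74459702 to 74487688 in mm9. The locus column does not state if its starts are 0-based or 1-based. Its partner Sdhb, the iron-sulfur subunit that takes the electrons from the flavin, measured 126 and 125 FPKM in Cnot3 fl/fl samples and 121 and 128 FPKM in Cnot3 +/+ samples. The groups overlapped, with a log2 fold change of 0.01. The membrane anchors Sdhc and Sdhd were 0.14 and 0.07 higher on the log2 scale and did not pass (adjusted p 0.35 and 0.56). Sdha thus stood above Sdhb by mean level in Cnot3 fl/fl samples, at 141.9 ± 13.5 against 125.6 ± 0.817 FPKM, and below it in Cnot3 +/+ samples, at 96.2 ± 2.49 against 124.9 ± 4.98 FPKM (SD, n = 2 each).

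In complex III 1 of 9 tested members was called, as higher, or 11.1%, against 6.22% of all genes tested. Uqcrc1 encodes core protein 1, one of the large matrix-facing subunits. It measured 134 and 143 FPKM in Cnot3 fl/fl samples and 96.2 and 105 FPKM in Cnot3 +/+ samples. It rose by 0.45 on the log2 scale (standard error 0.09, adjusted p = 0.0495 by limma), did not pass with a pseudocount of 5 (adjusted p = 0.0507), and lies on chromosome 9 from 108838660 to 108851686. Uqcrc2, core protein 2, had 103 and 115 FPKM in Cnot3 fl/fl against 78.4 and 87.3 FPKM in Cnot3 +/+ samples, again with no overlap, but did not pass (log2 fold change 0.39, adjusted p = 0.077). The electron-carrying subunits Cyc1 and Uqcrfs1, cytochrome c1 and the Rieske protein, had log2 fold changes of 0.05 and 0.01, and their libraries overlapped.

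The 5 short subunits of complex III all had negative log2 fold changes. The smallest of them, Uqcr11, measured 40.5 and 53.1 FPKM in Cnot3 fl/fl samples and 75.1 and 78.5 FPKM in Cnot3 +/+ samples. Its log2 fold change was -0.71 with a standard error of 0.14, just outside the threshold (adjusted p = 0.051). Uqcrq, Uqcrh and Uqcr10 stood at -0.55, -0.42 and -0.37 on that scale, with adjusted p of 0.10, 0.077 and 0.091, and in each both Cnot3 fl/fl samples were below both Cnot3 +/+ samples. Uqcrh is the hinge protein that links cytochrome c1 to cytochrome c. Uqcrb overlapped between the genotypes, at 23.2 and 27.7 FPKM in Cnot3 fl/fl against 22.7 and 30.2 FPKM in Cnot3 +/+ samples. Summed, the 5 short subunits measured 512.7 and 574.9 FPKM in Cnot3 fl/fl samples and 685.8 and 805.2 FPKM in Cnot3 +/+ samples. The pair of core proteins ran the other way, with sums of 236.4 and 257.4 FPKM in Cnot3 fl/fl against 174.6 and 192.7 FPKM in Cnot3 +/+ samples. These 2 sums thus differed in opposite directions, without overlap between the genotypes, although 0 of the 5 short subunits passed the test.

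In cytochrome c oxidase 3 of 13 tested members fell, or 23.1%, against 3.28% of all genes tested. All 13 of its tested members had a negative log2 fold change, with a median of -0.50. Both Cnot3 fl/fl samples were lower than both Cnot3 +/+ samples in 11 of them, or 84.6%, against 31.7% of all genes tested. Cox5a, a matrix-side subunit, measured 94.2 and 95.7 FPKM in Cnot3 fl/fl samples and 136 and 144 FPKM in Cnot3 +/+ samples. It fell by 0.55 on the log2 scale (standard error 0.08, adjusted p = 0.038 by limma), and lies on chromosome 9 from 57369038 to 57380233. Cox6c, a small membrane-spanning subunit, had 24.9 and 26.0 FPKM in Cnot3 fl/fl against 37.4 and 44.4 FPKM in Cnot3 +/+ samples, with a log2 fold change of -0.66 (standard error 0.11, adjusted p = 0.041 by limma). It lies on chromosome 15 from 35861730 to 35868001. For both genes the replicates of a genotype were closer to each other than to either library of the other genotype.

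Cox7a2l passed both in limma and in the authors' deposited table. It encodes a protein related to subunit 7a that joins complexes III and IV into supercomplexes, and C57BL/6 mice are known for carrying a shortened allele of it. It measured 89.1 and 104 FPKM in Cnot3 fl/fl samples and 149 and 149 FPKM in Cnot3 +/+ samples. It fell by 0.62 on the log2 scale (standard error 0.10, adjusted p = 0.042 by limma). Its mm9 span is chromosome 17 from 83901256 to 83913673.

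Among the other complex IV subunits, Cox4i1, which encodes the largest nuclear subunit, measured 376 and 418 FPKM in Cnot3 fl/fl samples and 553 and 568 FPKM in Cnot3 +/+ samples. The groups did not overlap, but the adjusted p was 0.059 (log2 fold change -0.50). Cox7c had the most negative log2 fold change of all tested members, -1.21, with a standard error of 0.41 (adjusted p = 0.12). Its Cnot3 fl/fl replicates were far apart, at 5.50 and 14.4 FPKM, against 22.7 and 21.5 FPKM in Cnot3 +/+ samples. Cox5b had 12.5 and 16.0 FPKM in Cnot3 fl/fl against 16.7 and 25.3 FPKM in Cnot3 +/+ samples. The remaining ubiquitous subunits Cox7a2, Cox8a, Cox6b1, Cox7b and Cox6a1 had log2 fold changes between -0.29 and -0.11, and Cox6a1 overlapped between the genotypes.

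**Figure D2:**
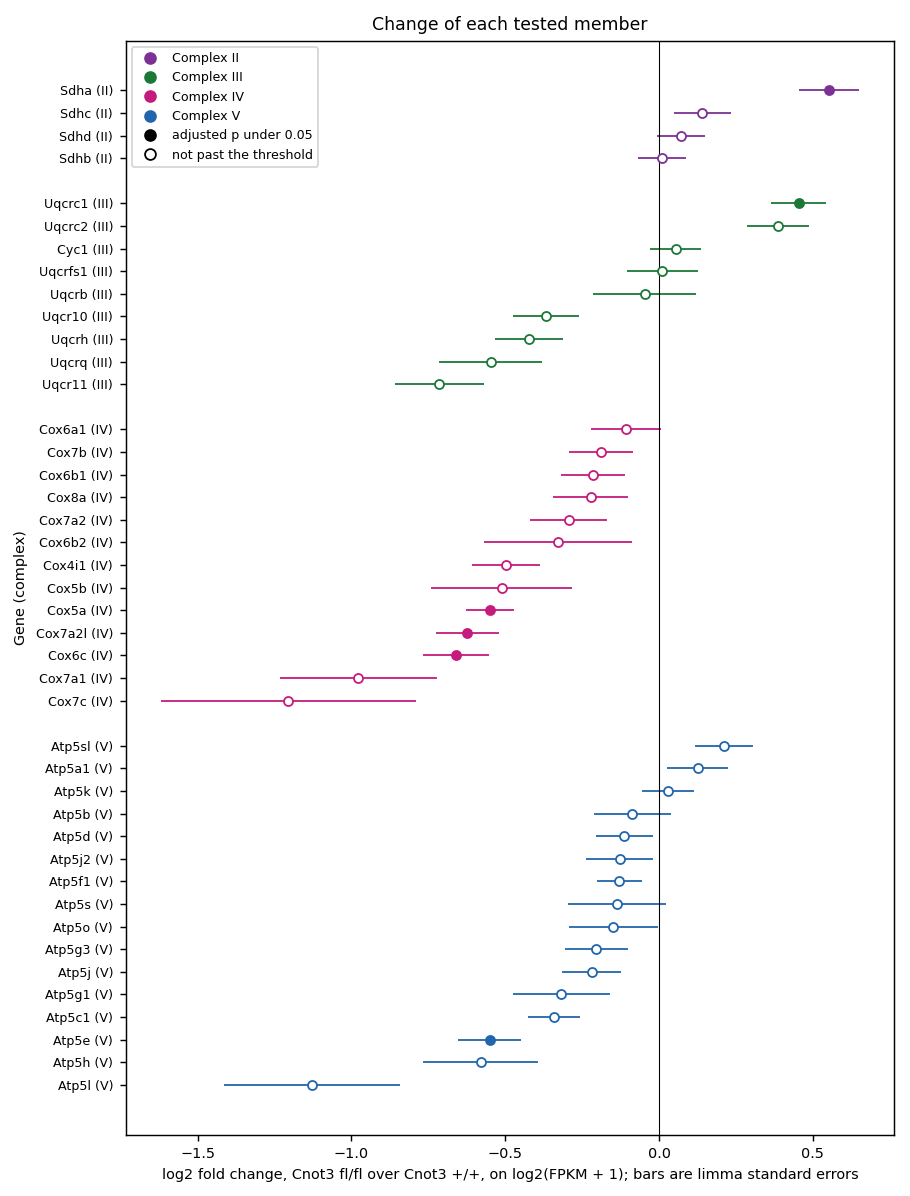
Log2 fold change, Cnot3 fl/fl over Cnot3 +/+, of each tested member with its limma standard error as a bar, grouped by complex; filled symbols mark an adjusted p under 0.05. Filled symbols right of 0 are Sdha and Uqcrc1, those left of 0 are Cox5a, Cox7a2l, Cox6c and Atp5e, and every complex IV point lies left of 0.

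Several complex IV subunits exist in tissue forms, and in this bulk RNA the ubiquitous ones had the higher FPKM, with 1 exception. Which cells of the mixture held each form was not tested. Cox4i2, a form of subunit 4 best known from lung, was listed at 0 in 3 libraries and at 0.153 FPKM in Cnot3 +/+ replicate 2. The testis forms Cox7b2 and Cox8c and the muscle form Cox8b were listed at 0 in all libraries. Cox6b2, known from testis, made up 1.61% to 2.66% of subunit 6b FPKM in Cnot3 fl/fl samples and 2.24% to 2.45% in Cnot3 +/+ samples. Cox7a1, the heart and muscle form, had 0.813 and 0.187 FPKM in Cnot3 fl/fl against 1.97 and 1.81 FPKM in Cnot3 +/+ samples (log2 fold change -0.98, adjusted p = 0.077). Levels this close to 0 are imprecise. The exception was subunit 6a. Cox6a2, known as the heart and muscle form and also as a gene of plasmacytoid dendritic cells, is not a member here but exceeded Cox6a1 in every library. Cox6a1 made up 37.6% and 39.5% of subunit 6a FPKM in Cnot3 fl/fl samples and 24.9% and 32.2% in Cnot3 +/+ samples. Cox6a2 itself had 375 and 388 FPKM in Cnot3 fl/fl against 734 and 577 FPKM in Cnot3 +/+ samples, and Cox6a1 at 226 and 253 FPKM in Cnot3 fl/fl against 243 and 274 FPKM in Cnot3 +/+ samples.

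In ATP synthase 1 of 16 tested members fell, or 6.25%, against 3.28% of all genes tested. None rose, against 6.22% of all genes tested. Atp5e, the epsilon subunit of the F1 rotor stalk, measured 378 and 402 FPKM in Cnot3 fl/fl samples and 566 and 577 FPKM in Cnot3 +/+ samples. It fell by 0.55 on the log2 scale (standard error 0.10, adjusted p = 0.045 by limma), and lies on chromosome 2 from 174286575 to 174289602. Its mean over all 4 libraries was the highest of the members, but in Cnot3 fl/fl samples Atp5b and Cox4i1 had higher means. The catalytic headpiece subunits alpha and beta are encoded by Atp5a1 and Atp5b. Atp5a1 had 345 and 369 FPKM in Cnot3 fl/fl against 318 and 337 FPKM in Cnot3 +/+ samples, and Atp5b at 396 and 427 FPKM in Cnot3 fl/fl against 404 and 473 FPKM in Cnot3 +/+ samples. Their log2 fold changes of 0.13 and -0.09 did not pass. The gamma subunit gene Atp5c1 had -0.34 with no overlap (adjusted p = 0.069), and the delta subunit gene Atp5d -0.11.

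The mature c subunit, which forms the rotating ring in the membrane, is encoded by several genes that differ in their import sequences. Atp5g3 supplied 93.2% to 95.1% of their summed FPKM over the 4 libraries and Atp5g1 4.85% to 6.70%. These shares depend on the near-absent Atp5g2, whose level is uncertain because most of its transcript is shared with other genes. Atp5g3 measured 177 and 185 FPKM in Cnot3 fl/fl samples and 195 and 223 FPKM in Cnot3 +/+ samples. Atp5g1 had 9.02 and 11.99 FPKM in Cnot3 fl/fl against 14.0 and 12.4 FPKM in Cnot3 +/+ samples. Neither passed, although in both genes the genotypes did not overlap. Of the 7 genes of the peripheral stalk and the membrane part, 6 had negative log2 fold changes and none passed. The stalk subunit d gene Atp5h had 23.2 and 33.1 FPKM in Cnot3 fl/fl against 39.0 and 45.1 FPKM in Cnot3 +/+ samples (adjusted p = 0.11). The membrane subunit g gene Atp5l had 1.30 and 2.55 FPKM in Cnot3 fl/fl against 4.27 and 6.41 FPKM in Cnot3 +/+ samples (log2 fold change -1.13, adjusted p = 0.072). Atp5j, Atp5o, Atp5f1, Atp5j2 and Atp5k, for subunits F6, OSCP, b, f and e, lay between -0.22 and 0.03. Atp5s and Atp5sl carry older names for genes that RefSeq lists as Dmac2l and Dmac2, and had log2 fold changes of -0.14 and 0.21. Both enter the counts, sum and correlation given for complex V by symbol only, not as parts of F1, the stalk or the membrane part.

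Summed over members, no complex had overlapping genotypes, but the gap was narrow in complexes III and V. Complex II summed to 410.0 and 440.9 FPKM in Cnot3 fl/fl samples and 358.4 and 376.9 FPKM in Cnot3 +/+ samples, a ratio of means of 1.16. Complex III summed to 925.9 and 1025 FPKM in Cnot3 fl/fl against 1033 and 1186 FPKM in Cnot3 +/+ samples, a ratio of 0.879. Complex IV summed to 1446 and 1606 FPKM in Cnot3 fl/fl against 1886 and 2017 FPKM in Cnot3 +/+ samples, a ratio of 0.782. Complex V summed to 2064 and 2196 FPKM in Cnot3 fl/fl against 2336 and 2530 FPKM in Cnot3 +/+ samples, a ratio of 0.875. In complexes III and V the nearest samples of the 2 genotypes differed by less than the 2 Cnot3 +/+ replicates did, whereas in complexes II and IV they differed by more than the replicates of either genotype. Core proteins and short subunits of opposite direction enter the sum of complex III.

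**Figure D3:**
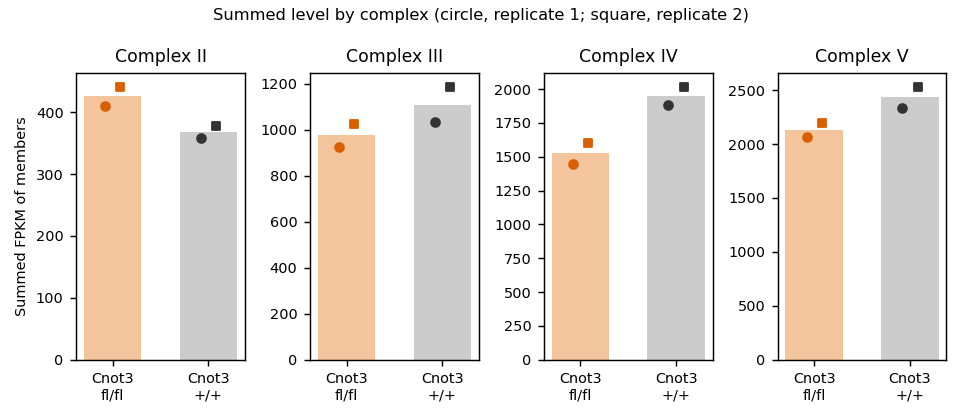
Summed FPKM of the members of each complex, with a bar for the mean of each genotype and a symbol for each library. The Cnot3 fl/fl samples are higher than the Cnot3 +/+ samples for complex II (410.0 and 440.9 in Cnot3 fl/fl against 358.4 and 376.9 in Cnot3 +/+) and lower for complex IV (1446 and 1606 in Cnot3 fl/fl against 1886 and 2017 in Cnot3 +/+).

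The log2 fold changes varied with subunit length, a property that the symbols do not encode. Coding lengths were taken from GENCODE M21, in bases without the stop codon. Across the 42 tested members, Pearson's r between log10 coding length and log2 fold change was 0.66 and Spearman's rho 0.64. Members are not independent replicates, they share the same 4 libraries, and no p is given. Among members with a coding length of up to 600 bases, 27 of 30 had a negative log2 fold change, 4 were called lower and 0 higher, and the median was -0.32. Among the 12 longer members 2 were called higher and 0 lower, and the median was 0.03. The lower calls are 13.3% of the short members, against 3.28% of all genes tested. The higher calls are 16.7% of the longer members, against 6.22% of all genes tested. Sdha, at 1992 bases, was the longest member, and Atp5e, at 156 bases, the shortest. The relation was steep in complex III, with r = 0.94 over 9 members, lower in complex V, with r = 0.43 over 16 members, and weak in complex IV, with r = 0.14 over 13 members, none of which is long.

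Genes outside complexes II to V also varied with length. The 36 tested complex I genes had r = 0.43 and rho = 0.62 with coding length. For the 10503 tested genes that are not members and have a GENCODE length, r was 0.09 and rho 0.11. Of those with up to 600 coding bases, 8.98% were called lower and 4.12% higher, with a median of -0.16, against 2.4% and 6.59% and a median of 0.01 for longer genes. Both Cnot3 fl/fl samples were lower than both Cnot3 +/+ samples in 73.3% of the short members and in 46.8% of the other short genes. No test of that difference was made. GENCODE M21 transcript lengths need not be those by which the deposited FPKM were scaled. With these transcript lengths in place of coding length, r was 0.56 and rho 0.58 over the members. Over the other genes r was -0.03 and rho -0.05, opposite in sign to their values with coding length.

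**Figure D4:**
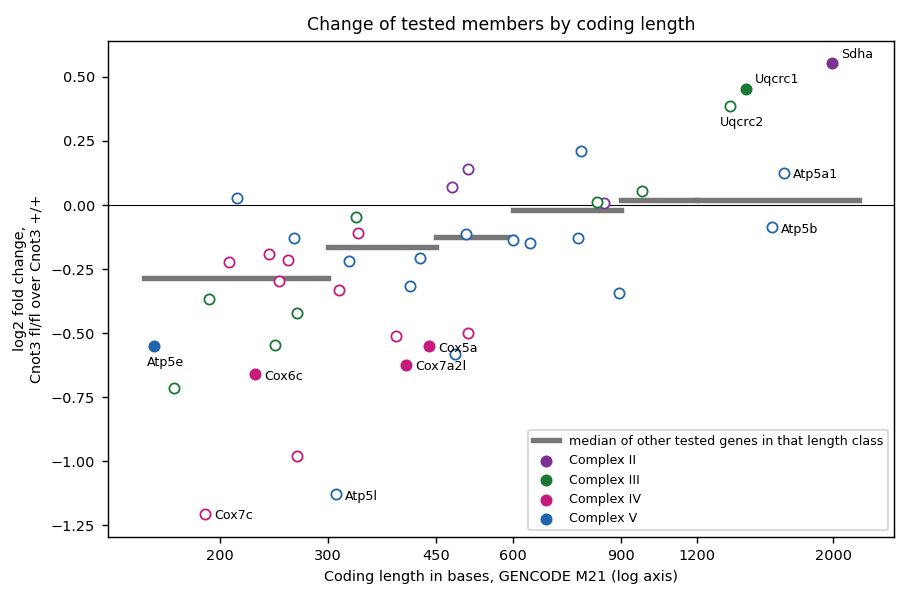
Log2 fold change, Cnot3 fl/fl over Cnot3 +/+, of each tested member against its coding length in bases (log axis), coloured by complex and filled where the adjusted p was under 0.05; grey bars give the median of the other tested genes in each length class. Members over 1200 bases lie between -0.09 and 0.55, and those up to 300 bases between -1.21 and 0.03.

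Some members share long stretches with other annotated genes, and their FPKM is uncertain. The share of 50-base stretches of a member's transcript that also occurs in a transcript of another gene was computed from GENCODE M21. It was highest in Atp5g2, at 87.4%, followed by Atp5l at 68.5%, Cox7c at 53.0%, Atp5h at 47.9% and Uqcrb at 43.2%. Cycs, the somatic cytochrome c gene and an essential electron carrier, shared 28.2%. Cycs and Atp5g2 were under 1 FPKM in every library. Cycs measured 0.144 and 0.275 FPKM in Cnot3 fl/fl samples and 0.351 and 0.276 FPKM in Cnot3 +/+ samples, and Atp5g2 had 0.172 and 0 FPKM in Cnot3 fl/fl against 0.216 and 0.0887 FPKM in Cnot3 +/+ samples. Neither was tested. No source used here says how reads with several matches were assigned. Of the called members, Sdha, Uqcrc1 and Atp5e shared no stretch, Cox5a shared 3.36%, Cox6c 13.9% and Cox7a2l 17.7%. Over the 21 tested members with no shared stretch, 2 were called higher and 1 lower. These are 9.52% and 4.76%, against 6.22% and 3.28% of all genes tested. In 47.6% of the 21, both Cnot3 fl/fl samples were lower than both Cnot3 +/+ samples, against 31.7% of all genes tested. The median log2 fold change of the 21 was -0.14, and r with coding length was 0.83.

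Promoter sequences are shown for the called members that RefSeq's table holds, since NRF1, ETS-family factors such as GABP, and YY1 are known regulators of nuclear respiratory genes. Each line gives the 120 bases before the annotated start on the gene's strand, in build GRCm38.p6, with matches to GCGCA then any single base then GCGC (NRF1), CCGGAAG (ETS) or AAGATGGC (YY1) on either strand in capitals.
Sdha, chr13:74350241-74350360, minus strand: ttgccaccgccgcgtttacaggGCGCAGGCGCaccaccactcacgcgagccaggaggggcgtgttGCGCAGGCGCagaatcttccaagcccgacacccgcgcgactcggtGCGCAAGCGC
Uqcrc1, chr9:108936528-108936647, plus strand: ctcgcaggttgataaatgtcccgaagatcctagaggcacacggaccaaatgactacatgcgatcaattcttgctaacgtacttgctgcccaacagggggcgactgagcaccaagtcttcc
Cox5a, chr9:57521112-57521231, plus strand: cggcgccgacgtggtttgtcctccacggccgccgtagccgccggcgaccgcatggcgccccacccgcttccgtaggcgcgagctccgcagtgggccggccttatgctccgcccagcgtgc
Cox7a2l, chr17:83514334-83514453, minus strand: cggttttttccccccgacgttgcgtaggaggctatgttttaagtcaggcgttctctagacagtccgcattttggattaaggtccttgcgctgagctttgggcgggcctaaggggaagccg
Atp5e, chr2:174464102-174464221, minus strand: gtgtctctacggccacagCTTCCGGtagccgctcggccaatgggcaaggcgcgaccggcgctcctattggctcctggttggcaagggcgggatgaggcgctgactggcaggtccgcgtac

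Sdha held 3 matches to the NRF1 letters, beginning 98, 55 and 10 bases before the start, and Atp5e held 1 match to the ETS letters, on the opposite strand. Uqcrc1 had no match in the stretch shown, but its window goes on to 50 bases after the start, where NRF1 letters begin at bases 6 and 31. Cox5a and Cox7a2l held none of the motifs in the stretch shown. In the whole window of 250 bases before to 50 after the start, 10 of 38 members held the NRF1 letters, or 26.3%, against 12.5% of tested genes and 5.19% of all genes in the table. The ETS letters were in 31.6% of the members, 22.2% of tested genes and 9.93% of all genes, and the YY1 letters in 10.5%, 5.77% and 3.19%. A match is not a binding site, and no binding was measured here.

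Of the factors named with those motifs, the list of regulators held Nrf1, Gabpa, Gabpb1 and Yy1, and none of these passed the test. Other ETS-family genes were not in that list, and the activity of the factors was not tested. Among 13 tested regulators of nuclear and mitochondrial respiratory genes, 0 were called by limma and 1 had an unadjusted p under 0.05 (7.69%, against 33.8% of all genes tested). Nrf1 averaged 15.8 FPKM in Cnot3 fl/fl samples, against 18.3 FPKM in Cnot3 +/+ samples, and Gabpa 20.0 FPKM in Cnot3 fl/fl against 17.9 FPKM in Cnot3 +/+ samples. Gabpb1, with the smallest p, stood at -0.32 on the log2 scale (adjusted p = 0.097). Yy1 and Tfam, which packages mitochondrial DNA and takes part in its transcription, had log2 fold changes of 0.02 and 0.00.

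Complex I, which feeds electrons from NADH, showed both directions too. Of the 36 tested genes of its list 1 rose and 5 fell, or 2.78% and 13.9%, against 6.22% and 3.28% of all genes tested. Ndufa9, one of the longer subunits, was at 86.6 FPKM in Cnot3 fl/fl against 59.1 FPKM in Cnot3 +/+ samples, or 0.54 on the log2 scale (adjusted p = 0.040 by limma). Ndufa3, Ndufa4, Ndufa1, Ndufc1 and Ndufc2 fell, with log2 fold changes between -0.81 and -0.45 and coding lengths of 210 to 360 bases. The product of Ndufa4 is now known as a subunit of cytochrome c oxidase, although the symbol places it in complex I. Among 41 assembly factors of complexes II to V, 2 rose and 4 fell, or 4.88% and 9.76%. Bcs1l, which inserts the Rieske protein into complex III, and Sco2, which delivers copper to complex IV, rose with log2 fold changes of 0.48 and 0.68. Cox14, Cox16 and Coa5, which act in complex IV assembly, and Mnf1, an older symbol of the complex III assembly gene Uqcc2, fell with log2 fold changes between -0.65 and -0.41.

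The citric acid cycle and the carriers around ATP synthase held 0 called genes by limma. At an unadjusted p under 0.05 there were 4 of 13 cycle enzymes (30.8%) and 1 of 8 carriers (12.5%), against 33.8% of all genes tested. Both Cnot3 fl/fl samples were above both Cnot3 +/+ samples in 7 cycle enzymes (53.8%, against 32.7% of all genes tested) and below in 2 (15.4%, against 31.7%). Suclg1, which makes the succinate that complex II oxidises, was at 69.1 FPKM in Cnot3 fl/fl against 55.0 FPKM in Cnot3 +/+ samples, or 0.32 on the log2 scale (adjusted p = 0.059). Fh1, the fumarase that takes up the product of complex II, was at 70.0 FPKM in Cnot3 fl/fl against 55.2 FPKM in Cnot3 +/+ samples (adjusted p = 0.078). The adenine nucleotide carrier genes Slc25a4 and Slc25a5 and the phosphate carrier gene Slc25a3 had log2 fold changes of -0.05, -0.30 and -0.05, and Vdac1, with the smallest p, had -0.28 (adjusted p = 0.086).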

How the data were processed

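Messenger RNA libraries were made with a stranded kit and 15 PCR cycles, per the labels' protocols. The submitters' processing notes list Cuffnorm 2.2.1 and Cufflinks 2.2.1, Bowtie2 2.2.3.0 with TopHat2 2.0.13, bcl2fastq 1.8.4 and mm9, without saying what each did. The authors deposited FPKM values of 23312 genes in each library. Their comparison table gives each gene's p-value and q-value, per the file headers. Because FPKM values are not counts, no count test was run.

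The log2(FPKM + 1) values of genes averaging 1 FPKM or more entered limma 3.58.1 (R 4.3.3; lmFit, then eBayes with its trend option), modelled on genotype alone. Residual degrees of freedom were 2, with 2.69 added by the prior. The code was tested on simulated data. The added 1 FPKM makes log2 fold changes of low genes too small. Plain folds divide mean FPKM. Depth was compared through genes under 0.3 FPKM, by the ratio shared within 0.5% by the most genes, which held for 11.8% to 13.3% of them.

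Every member could be named; values per library were given for called members, isoform families and the most abundant members, and called members of other lists, or up to 3 with the smallest p, were named. Per-library values of further members, and Gabpa, Yy1, Tfam and the Slc25a carriers, were added after their values were seen. The members and lists were chosen with earlier results of these data known, so no pattern here is independent support. Coding lengths and shared stretches came from GENCODE M21, matched by symbol for 48 members and 10545 tested genes, and promoters from RefSeq (GRCm38.p6) for 38 members; none of these coordinates was mixed with mm9. The design named RefSeq protein lengths, which were replaced by GENCODE coding lengths. Alternatives were other pseudocounts, filters, scalings and variance models, a replicate block, and each library left out.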

Additional observations from a re-analysis of the deposited data

How the results depend on the processing

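No log2 fold change of the 6 called members, and no median over the members, changed sign under any alternative run, but the calls depended on the settings. With every gene above 0 tested, 4 genes were called higher and 1 lower, of which 0 and 0 were members and 0 and 0 belonged to the other respiratory lists. Without the variance trend there were 242 and 69 genes, 0 and 0 members, and 0 higher and 1 lower in the other lists. A pseudocount of 5 left 1 member higher, and quantile normalization called 9 members lower. Restricted to members with no shared stretch, an alternative added after the data were seen, 1 was lower, or 4.76%, against 3.28% of all genes tested. With any one library left out, 2 to 18 genes were higher and 0 to 13 lower, with 0 to 0 members and 0 to 0 genes of the other lists in either direction. Such a fit assumes that the lone sample of a genotype varies like the other genotype's samples. In these fits the members' median log2 fold change ranged from -0.29 without Cnot3 +/+ replicate 1 to -0.15 without Cnot3 +/+ replicate 2.

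With the replicate number as a block, 456 genes were called higher and 270 lower, and 1 member higher and 5 lower. Uqcrc1 and Atp5e no longer passed, each with a limma adjusted p of 0.053, while Uqcr11 and Atp5l did, with 0.048 and 0.040. Deviations of samples with the same number correlated at 0.14 over only 2 pairs, and the labels do not say that a number marks a shared litter or day, so the numbers were not taken as pairs. The absolute depth is unknown, so no counting error could be given for any value.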
